A study of Danio rerio with 4 samples.

Results

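The crystallins are the soluble proteins that fill the fibre cells of the vertebrate eye lens. Those studied here are the alpha, beta and gamma crystallin genes of zebrafish (Danio rerio). They were taken as every gene whose symbol begins with cryaa, cryaba, cryabb, cryba, crybb or cryg, among probe sets that name a single gene, with the probe set of highest mean signal standing for each gene. The rule gave 45 genes of the 19260 on the array with such a probe set: 3 alpha, 11 beta and 31 gamma crystallins. The cryptochromes of the circadian clock, which share the letters cry, are not among them. A further 11 probe sets carry a crystallin symbol together with another symbol and were not used.

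Whole eyes of fish aged 3.5 months after fertilisation were compared on 4 Affymetrix arrays, 1 for each genotype. The groups were eys+/-; lrp5+/- fish, heterozygous at both loci and called double heterozygotes here, lrp5-/- homozygotes, eys-/- homozygotes, and wildtype fish. Each sample held both sexes, and all fish were kept in the same light and dark cycle. The mutant alleles, the number of fish behind an array and the hour at which eyes were taken are not given in the sources used here. The design asks how each mutant genotype differs from wildtype. Every genotype has a single array. The spread between fish is therefore unknown, nothing is tested, and each difference sets 1 array against another.

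The lens grows throughout life by adding fibre cells that lose their nuclei and organelles, and the crystallins made before that loss stay for good. Alpha crystallins belong to the small heat shock proteins and act as chaperones that hold unfolding proteins in solution. Beta and gamma crystallins share a fold of Greek key motifs and are mainly structural, giving the lens its refractive index. The gamma M crystallins, rich in methionine, are a hallmark of the hard, dense lens of fishes. In zebrafish eys acts around photoreceptors and lrp5 is a Wnt co-receptor.

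Values are the deposited log2 signals, and a difference of 1 is 2-fold. In each comparison a gene was taken as measured if at least 1 of the 2 signals reached 6.54, the median over named probe sets. Of the 45 crystallins, 29 reached this level on at least 1 array: all 3 alpha, all 11 beta, both gamma N, all 3 gamma S, all 3 gamma Mx and 7 of 23 gamma M genes. A member that passes through only 1 of 2 arrays must differ between them, so counts over measured members are descriptive. As a yardstick of how far any gene differs between these arrays, the robust SD (from the median absolute deviation) of all measured genes was 0.23 for the double heterozygote, 0.20 for lrp5-/- and 0.20 for eys-/-, each against wildtype.

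The arrays were much alike, with median signals of 5.03 to 5.06, and pairs of them correlated at 0.978 to 0.983 over 75212 probe sets. The 1 probe set of lrp5 read 6.92 in the double heterozygote, 7.17 in lrp5-/-, 7.27 in eys-/- and 7.39 in wildtype. Its position relative to the mutated site is unknown here, and eys had 0 single-symbol probe sets, so neither gene serves as a check of the genotypes. Lens tissue was present in all 4 samples: mipa, the water channel of lens fibre membranes, read 12.42 in the double heterozygote, 12.13 in lrp5-/-, 12.41 in eys-/- and 12.20 in wildtype. Retina was present too, with gnat1, the rod transducin, at 12.46 in the double heterozygote, 12.43 in lrp5-/-, 12.54 in eys-/- and 12.56 in wildtype.

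Crystallin signals stood near the top of the scale on every array. At or above the 99th percentile of all probe sets lay 18 of the 45 members in the double heterozygote, 19 in lrp5-/-, 18 in eys-/- and 19 in wildtype. Among the 37 genes of the whole array with a mean log2 signal of 12 or more, 10 were crystallins. For example, cryba1a, a beta A1 crystallin, read 13.05 in the double heterozygote, 13.00 in lrp5-/-, 12.98 in eys-/- and 13.04 in wildtype, where the array maximum lay between 13.45 and 13.52. Probe sets differ in affinity, so these signals describe the scale and do not rank the genes by mRNA. In the plot of signals by array most crystallins form tight groups of 4 points.

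**Figure D1:**
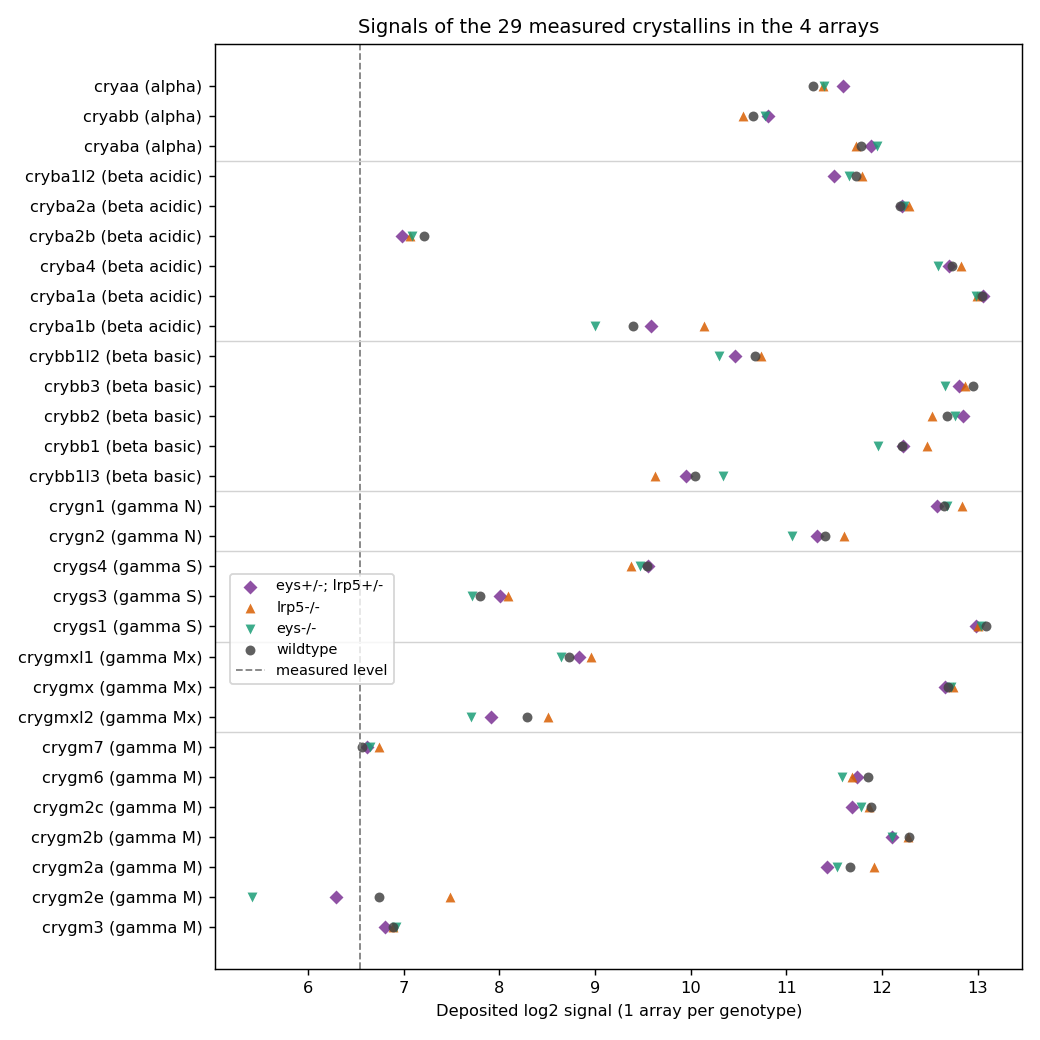
Deposited log2 signals of the 29 measured crystallins, 1 row per gene and 1 point per genotype, with the subfamily in brackets; the dashed line is the measured level of 6.54. The 4 points nearly coincide for cryba1a and crygmx and lie far apart for crygm2e and cryba1b.

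Against wildtype, few crystallins differed by much in any genotype. In the double heterozygote 0 of 29 measured members differed from wildtype by 2-fold or more, where 1.71% of all measured genes did. In lrp5-/- it was again 0 of 29, against 0.664% of all measured genes. In eys-/- it was 1 of 29, the gamma crystallin crygm2e, against 0.645%. With so few genes past 2-fold anywhere, a count of 0 or 1 in 29 is close to the background.

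The median log2 difference of the measured crystallins from wildtype was -0.07 in the double heterozygote, with values from -0.45 to 0.32. In lrp5-/- it was 0.06, from -0.42 to 0.74. In eys-/- it was -0.08, from -1.33 to 0.30. Without the gamma M genes, the medians over 22 genes were -0.01 in the double heterozygote, 0.07 in lrp5-/- and -0.07 in eys-/-. In the double heterozygote 11 of these 22 were above wildtype and 11 below, where 49.7% of all measured genes were below. The medians of all measured genes were 0.0015 in the double heterozygote, 0.00020 in lrp5-/- and -0.014 in eys-/-. In whole eyes, fewer lens cells and less RNA per lens cell cannot be told apart, and a change in the share of lens in the sample would act in the same way.

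**Figure D2:**
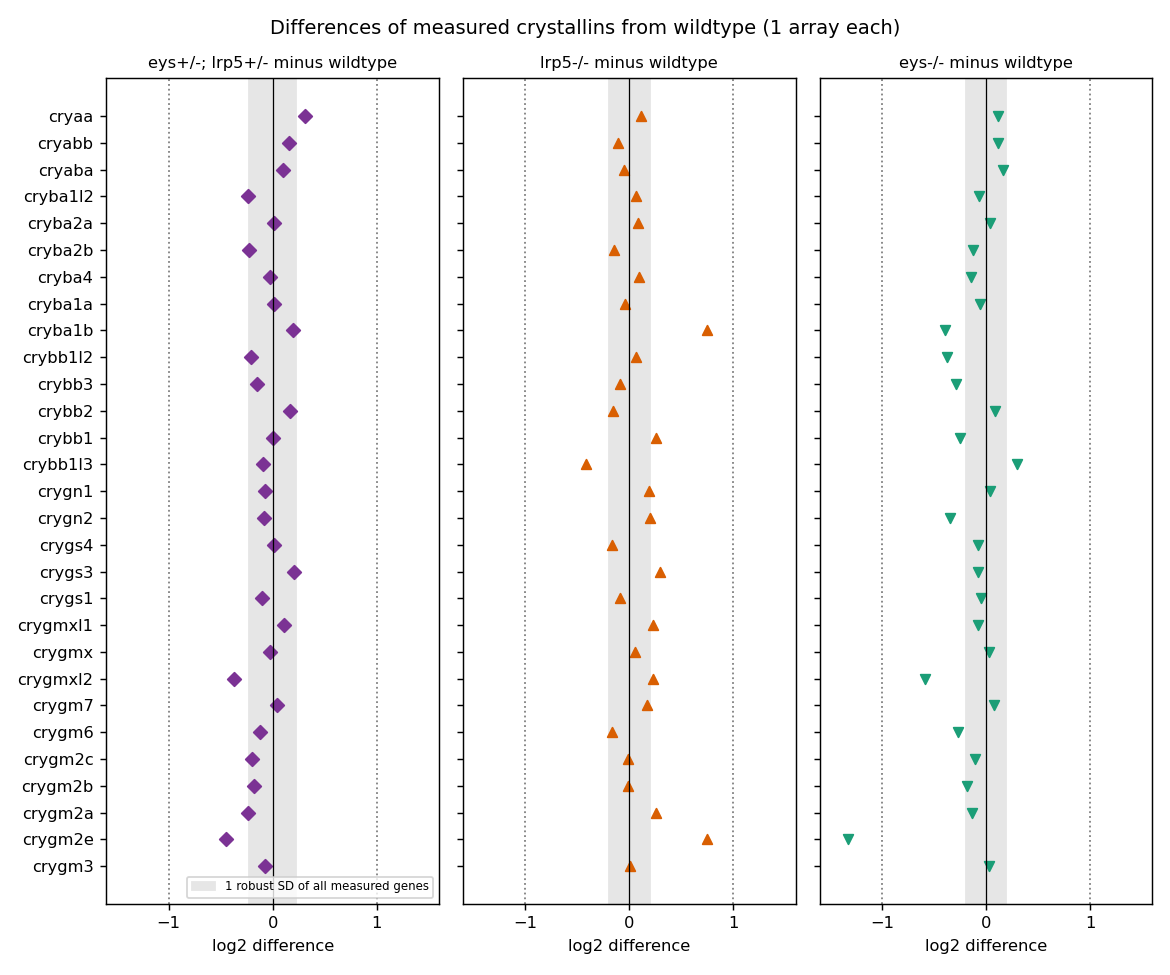
Log2 differences of the 29 measured crystallins from wildtype in the double heterozygote, lrp5-/- and eys-/-, 1 point per gene; grey bands span 1 robust SD of all measured genes either way and dotted lines mark 2-fold. Most points lie in or beside the bands, and only crygm2e in eys-/- passes 2-fold.

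Among the alpha crystallins, cryaa read 11.59 in the double heterozygote, 11.38 in lrp5-/-, 11.39 in eys-/- and 11.27 in wildtype. It is the alpha A chaperone, and the double heterozygote stood 0.32 above wildtype, beyond 1 robust SD, while lrp5-/- and eys-/- differed by 0.11 and 0.12. The alpha B gene cryaba read 11.88 in the double heterozygote, 11.73 in lrp5-/-, 11.95 in eys-/- and 11.78 in wildtype. Its duplicate cryabb read 10.81 in the double heterozygote, 10.55 in lrp5-/-, 10.77 in eys-/- and 10.65 in wildtype. For both alpha B genes lrp5-/- was the lowest array, by 0.05 and 0.11 below wildtype, and these differences lie within 1 robust SD. All 3 alpha genes were above wildtype in the double heterozygote and in eys-/-. Of all measured genes 5299 of 10534 and 4975 of 10542 were, in the same order. Apart from cryaa in the double heterozygote, these alpha differences lie within 1 robust SD.

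The beta crystallins form dimers and larger assemblies and are named acidic (cryba) or basic (crybb) by their charge. Their medians against wildtype were -0.03 in the double heterozygote, 0.06 in lrp5-/- and -0.12 in eys-/- over 11 genes. The widest range among them was that of cryba1b, a second beta A1 gene, which read 9.59 in the double heterozygote, 10.14 in lrp5-/-, 8.999 in eys-/- and 9.39 in wildtype. Thus lrp5-/- was above wildtype by 0.74 and eys-/- below it by -0.39, while the double heterozygote differed by 0.20. Its counterpart cryba1a, by contrast, spanned only 0.07 over the 4 arrays.

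On the basic side crybb1l3 ran the other way. It read 9.95 in the double heterozygote, 9.62 in lrp5-/-, 10.34 in eys-/- and 10.04 in wildtype, so that lrp5-/- was lowest and eys-/- highest. Against wildtype the lrp5-/- value was -0.42 and the eys-/- value 0.30. The beta B1 gene crybb1 read 12.21 in the double heterozygote, 12.46 in lrp5-/-, 11.96 in eys-/- and 12.21 in wildtype, with lrp5-/- 0.25 above wildtype and eys-/- -0.25 from it. For crybb1l2 the readings were 10.46 in the double heterozygote, 10.74 in lrp5-/-, 10.30 in eys-/- and 10.67 in wildtype, lowest in eys-/- by a difference of -0.38. The beta B3 gene crybb3 was lower than wildtype in all 3 mutant genotypes, at 12.81 in the double heterozygote, 12.87 in lrp5-/- and 12.66 in eys-/-, against 12.95 in wildtype. The beta B2 gene crybb2 read 12.84 in the double heterozygote, 12.52 in lrp5-/-, 12.76 in eys-/- and 12.68 in wildtype. The other acidic members cryba2a, cryba2b, cryba4 and cryba1l2 stayed within -0.23 and 0.10 of wildtype in every genotype.

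Beta crystallin genes often sit side by side in acidic and basic pairs, and 3 such neighbours occur among the members in the RefSeq gene order of assembly GRCz12tu. In the pair cryba4 and crybb1 both genes read higher in lrp5-/- than in eys-/-, by 0.24 and 0.50. In the pair cryba1l2 and crybb1l2 both did so as well, by 0.14 and 0.44. In the pair cryba1a and crybb1l3 they parted, with 0.02 for cryba1a and -0.72 for crybb1l3. Neighbours therefore had the same sign in 2 of the 3 pairs in this comparison, in which 20 of all 29 measured crystallins were above 0. Against wildtype they did so in 1 of 3 pairs in the double heterozygote, 3 of 3 in lrp5-/- and 2 of 3 in eys-/-. Of all 29 measured crystallins, 12 were above wildtype in the double heterozygote, 17 in lrp5-/- and 10 in eys-/-. Among all measured genes, 5299 of 10534, 5270 of 10536 and 4975 of 10542 were above wildtype, in the same order. Several signs rest on small values: in lrp5-/- cryba1l2 stood at 0.06, crybb1l2 at 0.07 and cryba1a at -0.04, all within 1 robust SD. How often other neighbours share a sign was not computed.

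The gamma N crystallins are thought to be intermediate between the beta and gamma branches. Of these, crygn2 read 11.32 in the double heterozygote, 11.60 in lrp5-/-, 11.06 in eys-/- and 11.40 in wildtype, a difference from wildtype of 0.20 in lrp5-/- and -0.35 in eys-/-. The other, crygn1, read 12.57 in the double heterozygote, 12.83 in lrp5-/-, 12.68 in eys-/- and 12.65 in wildtype. Both gamma N genes were highest in lrp5-/-.

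Gamma S crystallins are made in the mature lens of many vertebrates. The gene crygs1 was level, at 12.98 in the double heterozygote, 13.00 in lrp5-/-, 13.03 in eys-/- and 13.08 in wildtype. A second gamma S gene, crygs4, spanned 0.18 over the 4 arrays, with its lowest reading in lrp5-/-. In crygs3 the readings were 8.002 in the double heterozygote, 8.09 in lrp5-/-, 7.72 in eys-/- and 7.80 in wildtype. Its second probe set gave 6.86 in the double heterozygote, 7.02 in lrp5-/-, 6.58 in eys-/- and 6.59 in wildtype, so that both placed the double heterozygote and lrp5-/- above wildtype.

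The gamma Mx genes are a small branch beside the gamma M genes. The main one, crygmx, was steady at 12.66 in the double heterozygote, 12.74 in lrp5-/-, 12.72 in eys-/- and 12.69 in wildtype, and its second probe set spanned a similarly narrow range of 9.61 to 9.71. The related gene crygmxl2 was less steady, with 7.91 in the double heterozygote, 8.51 in lrp5-/-, 7.70 in eys-/- and 8.28 in wildtype. It stood at -0.37 from wildtype in the double heterozygote and at -0.58 in eys-/-, and at 0.23 in lrp5-/-. For crygmxl1 the differences were 0.11 in the double heterozygote, 0.23 in lrp5-/- and -0.08 in eys-/-.

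The gamma M crystallins lie, with few exceptions, in 1 run of neighbouring genes. Between crygm7 and crygs3 the RefSeq table lists 39 genes, 37 of them protein coding, and 34 of the 39 are crystallins by the rule. Single-symbol probe sets represent 25 of these 34. The plot of the cluster sets the inner crygm2d members beside the outer ones, whose signals range from just above the measured level in crygm7 and crygm3 to more than 12 in crygm2b. All 15 crygm2d members lay below the measured level on every array, with readings between 0.94 and 6.38. These genes are near-identical, so their probe sets may share probes or detect several copies, and a low reading is not shown to mean that a gene is silent.

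**Figure D3:**
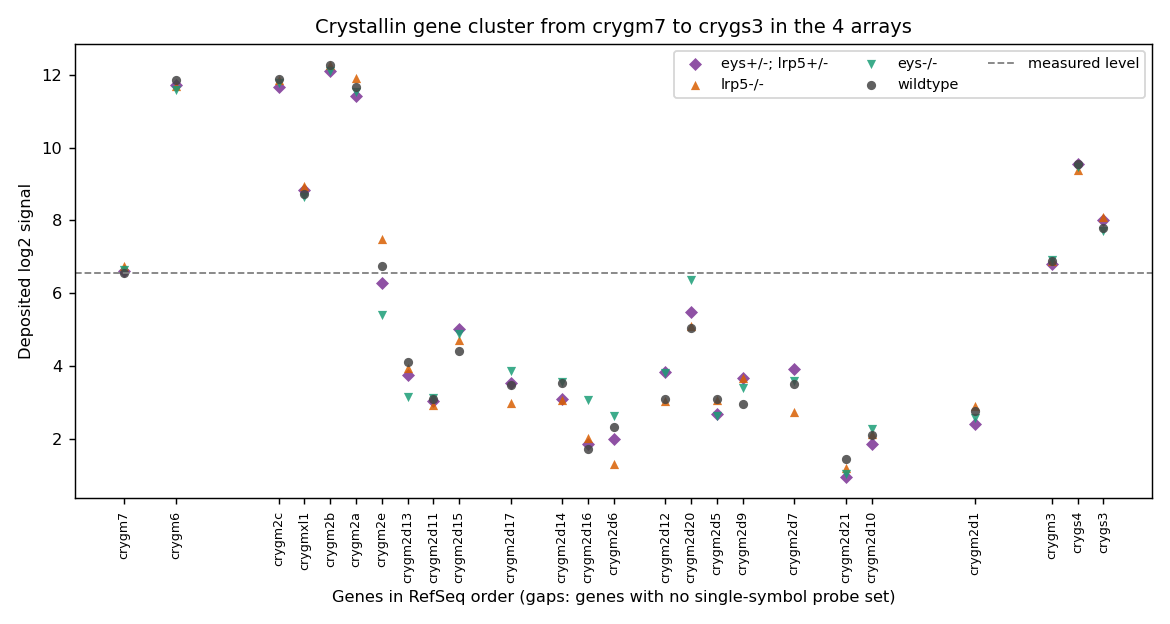
Log2 signals of the 25 members in the gene cluster from crygm7 to crygs3, in the order of the RefSeq table, 1 point per genotype; the dashed line is the measured level of 6.54. The 15 crygm2d genes in the middle lie below it in all 4 arrays, and crygm2e at their edge straddles it.

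The measured gamma M genes had median differences from wildtype of -0.18 in the double heterozygote, 0.0049 in lrp5-/- and -0.13 in eys-/- over 7 genes. In the double heterozygote 6 of the 7 were below wildtype, each by less than 0.5, where 49.7% of all measured genes were below. The gene crygm2a read 11.42 in the double heterozygote, 11.92 in lrp5-/-, 11.53 in eys-/- and 11.66 in wildtype. Its neighbours crygm2b and crygm2c ranged over 0.18 and 0.20 and were highest in wildtype, as was crygm6, which stood at -0.27 from wildtype in eys-/-. The remaining measured genes crygm3 and crygm7 ranged over 0.10 and 0.17.

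The widest range of any measured crystallin belonged to crygm2e, next to the crygm2d genes in the run. It read 6.29 in the double heterozygote, 7.48 in lrp5-/-, 5.41 in eys-/- and 6.74 in wildtype. That puts eys-/- at -1.33 from wildtype, 2.51-fold lower, and lrp5-/- at 0.74, 1.67-fold higher. The eys-/- and double heterozygote readings lie below the measured level, so the size is uncertain, and near-identical copies may share the probes. Among the crygm2d genes below the measured level, crygm2d20 read 5.48 in the double heterozygote, 5.09 in lrp5-/-, 6.38 in eys-/- and 5.05 in wildtype, the opposite direction from crygm2e in eys-/-. Likewise crygm2d16 read 1.85 in the double heterozygote, 2.01 in lrp5-/-, 3.08 in eys-/- and 1.72 in wildtype, readings too low to interpret.

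The homozygotes were also set against each other. In lrp5-/- minus eys-/-, 20 of 29 measured members were above 0, where 50.8% of all measured genes were, and the median was 0.11, against 0.0050 for all measured genes. Past 2-fold were 2 members, both higher in lrp5-/-, where 0.908% of all measured genes were higher and 0.52% lower. They were crygm2e, by 2.07 (4.21-fold), and cryba1b, by 1.14. More than 1 robust SD of 0.22 from 0 were 10 members higher and 4 members lower in lrp5-/-, where 18.4% and 15.3% of all measured genes did.

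**Figure D4:**
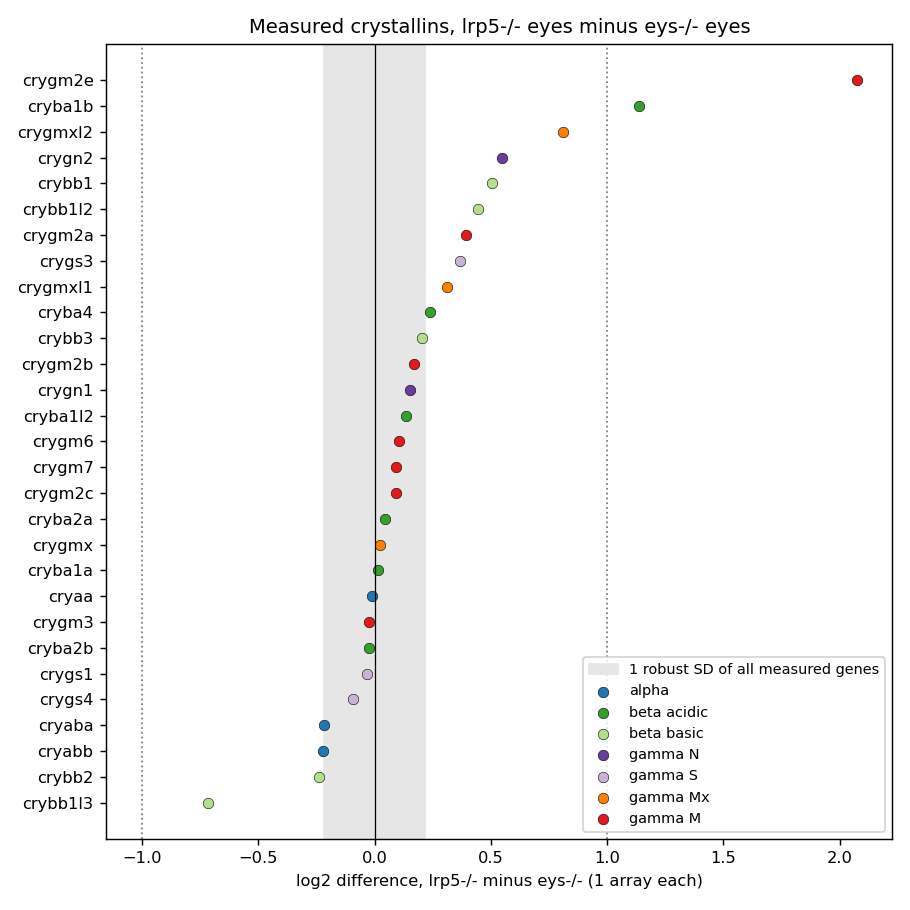
Log2 difference of each of the 29 measured crystallins between lrp5-/- and eys-/- eyes, sorted and coloured by subfamily; the grey band spans 1 robust SD of 0.22 either way and dotted lines mark 2-fold. Only crygm2e and cryba1b pass 2-fold. Below 0 lie 9 genes, among them crybb1l3, crybb2 and the 3 alpha genes, of which cryaa is at -0.01.

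After those came crygmxl2 at 0.81, crygn2 at 0.55, crybb1 at 0.50 and crybb1l2 at 0.44, all higher in lrp5-/-. Lower in lrp5-/- were crybb1l3 at -0.72, crybb2 at -0.24 and the alpha B genes cryabb and cryaba at -0.22 each, so the family did not move as a block. The array with the highest reading was lrp5-/- for 15 of the 29 measured members, compared with 20.4% of all measured genes. The array with the lowest reading was eys-/- for 13 of 29, compared with 29.7%. Lowest in eys-/- and highest in lrp5-/- at once were 9 of 29, compared with 9.1% of all measured genes: cryba4, cryba1b, crybb1, crybb1l2, crygn2, crygs3, crygmxl1, crygmxl2 and crygm2e. This order, noticed in the data, compares single arrays that each enter every count.

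The double heterozygote was set against each homozygote as well. Against lrp5-/- it had 1 member lower by 2-fold or more, crygm2e at -1.19, where 0.287% of all measured genes were lower and 0.297% higher, and 0 members higher. Below 0 in this comparison were 21 of 29 members, where 48.0% of all measured genes were. More than 1 robust SD of 0.17 from 0 were 10 members lower and 5 higher in the double heterozygote, where 16.3% and 17.3% of all measured genes were. The 5 higher ones included the alpha B gene cryabb at 0.26 and crybb1l3 and crybb2 at 0.32 each. Against eys-/- it had 0 of 28 measured members past 2-fold, where 2.16% of all measured genes were. The largest differences among those 28 were 0.59 for cryba1b and -0.39 for crybb1l3. Left out was crygm2e, at 0.88, because both of its readings lie below the measured level. These comparisons share arrays with those above and are given side by side only.

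Variation over the 4 arrays differed with the level of the signal. Among members with a mean of 12 or more, the range over the arrays had a median of 0.21 over 10 genes, against 0.13 for all 37 genes at that level. Between 10 and 12 it was 0.30 over 9 members and 0.28 over 462 genes. Below 10 it was 0.34 over 10 members and 0.29 over 10357 genes. Both members that spanned 2-fold or more had mean levels under 10, and 3.55% of all measured genes spanned as much. Whether signals near the array maximum are compressed was not tested.

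Other lens genes give a view of the same tissue. Of 19 genes for lens fibre membranes and cytoskeleton 14 were measured, and 0 passed 2-fold in any comparison with wildtype. Of all measured genes 1.71% did in the double heterozygote, 0.664% in lrp5-/- and 0.645% in eys-/-, so 0 of 14 is close to the background. The medians of the list were 0.02 in the double heterozygote, -0.04 in lrp5-/- and -0.03 in eys-/-. In lrp5-/- minus eys-/- the median was -0.05 with 5 genes above 0 and 9 below, where 50.8% of all measured genes were above 0. The beaded filament genes bfsp1 and bfsp2 were 0.22 and 0.21 higher in lrp5-/- than in eys-/-, and mipa and the gap junction gene gja3 differed by -0.28 and -0.37. Over all 19 genes, measured or not, mean levels were 8.46 in the double heterozygote, 8.45 in lrp5-/-, 8.52 in eys-/- and 8.49 in wildtype. The largest difference from wildtype was in the membrane protein gene lim2.2, at 10.01 in the double heterozygote, 10.53 in lrp5-/- and 10.77 in eys-/-, against 10.84 in wildtype.

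Measured regulators of lens genes lay between -0.33 and 0.36 of wildtype in every genotype. Of 16 listed 11 had a single-symbol probe set and 9 were measured. The count past 2-fold was 0, close to the background of 0.645% to 1.71% of all measured genes. Medians were -0.26 in the double heterozygote, -0.01 in lrp5-/- and -0.02 in eys-/-. In the double heterozygote the list was split. There 4 of 9 genes were above wildtype, by 0.02 to 0.24, and 5 below, at -0.33 to -0.26. Of all measured genes 49.7% were below. The heat shock factor hsf4 is required for fibre cell maturation and was also on the list of lens fibre genes. It read 8.32 in the double heterozygote, 8.44 in lrp5-/-, 8.09 in eys-/- and 8.08 in wildtype. The homeobox gene pax6a, active in both lens and retina, read 9.81 in the double heterozygote, 9.90 in lrp5-/-, 9.91 in eys-/- and 10.14 in wildtype. The lens and fibre regulator prox1a was -0.27 from wildtype in the double heterozygote and -0.13 in each homozygote. Foxe3, the marker of lens epithelium, spanned 6.54 to 6.68 over the arrays.

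Relatives outside the family, and other genes that share only the crystallin name or part of it, were few. Of 9 small heat shock protein genes with a probe set 3 were measured, and 0 passed 2-fold. Among them hspb6 read 8.95 in the double heterozygote, 8.01 in lrp5-/-, 8.84 in eys-/- and 8.46 in wildtype. It was lowest in lrp5-/-, as were the alpha B crystallins, whose differences from wildtype there lie within 1 robust SD. All 6 measured muscle genes were also below wildtype in lrp5-/-, where 5262 of 10536 measured genes were. A link between these was not tested. The other measured small heat shock protein genes, hspb1 and hspb7, were lowest in the double heterozygote, at 9.54 and 6.46, against 9.64 and 6.53 in lrp5-/-. Of 6 other genes with crystallin in their name, such as crybg1a and cryzl1, none passed 2-fold, and their measured differences from wildtype lay between -0.18 and 0.30. Counts of 0 in lists this short are close to the background of 0.645% to 1.71% of all measured genes.

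Markers of neighbouring tissues differed between the same arrays. The 8 genes of cornea and sclera matrix had a mean level of 8.55 in the double heterozygote, 8.30 in lrp5-/-, 8.38 in eys-/- and 7.83 in wildtype, with kera of the corneal stroma 1.73 above wildtype in the double heterozygote. The 7 muscle genes had a mean of 7.51 in the double heterozygote, 7.04 in lrp5-/-, 7.78 in eys-/- and 7.67 in wildtype. For the 10 genes of surface epithelium the means were 8.79 in the double heterozygote, 9.06 in lrp5-/-, 9.07 in eys-/- and 8.80 in wildtype. The rod list, of 7 genes, averaged 10.76 in the double heterozygote, 10.65 in lrp5-/-, 10.55 in eys-/- and 10.52 in wildtype. Double heterozygote minus wildtype had a rod median of only 0.06, with 4 genes above 0 and 3 below. The largest rod difference there was 1.91, in nr2e3. The cone list, of 6 genes, averaged 12.03 in the double heterozygote, 11.96 in lrp5-/-, 11.83 in eys-/- and 11.84 in wildtype. Its median in double heterozygote minus wildtype was 0.05, with 3 genes above 0 and 3 below, and cnga3a stood at 1.07. The 4 red cell genes averaged 7.25 in the double heterozygote, 7.01 in lrp5-/-, 6.90 in eys-/- and 6.86 in wildtype. Only 2 of these 4 were measured, so the means rest partly on signals below the measured level. Over the 2 measured genes the median from wildtype was -0.01 in the double heterozygote, 0.135 in lrp5-/- and -0.41 in eys-/-. The list means are log2 signal levels and not differences from wildtype. In lrp5-/- minus eys-/-, 0 of 6 measured muscle genes were above 0, where 50.8% of all measured genes were. The counts above 0 were 5 of 10 for surface epithelium and 3 of 6 for cornea and sclera matrix. They were 4 of 7 for rods, 2 of 6 for cones and 2 of 2 for red cells. The part of these tissues in the crystallin values was not tested.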

How the data were processed

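RNA of whole zebrafish eyes was measured on 4 Affymetrix arrays, 1 per genotype. The authors deposited log2 signals per probe set. The submitters' processing notes name RMA together with Transcriptome Analysis Console 4.0. Since RMA includes quantile normalization, a general shift of signals between arrays is not visible. That the scale is log2 was inferred from the range of the values. Genome build and array annotation version are not given in the sources used here.

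Platform annotation dated 2013 named 21661 of 75212 probe sets, 20806 with 1 symbol and 855 with several. All 45 members were found by gene identifier in RefSeq (assembly GRCz12tu), with 0 changed symbols, and only gene order was taken from there.

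Differences, medians, counts past 2-fold and ranges were computed with pandas 2.3.3, and trends with level by lowess in statsmodels 0.14.6. The 2-fold rule was run on simulated data with large changes planted in genes well above the measured level. That run does not cover smaller differences, or genes near that level such as crygm2e. The number of arrays limits the precision. Members and lists were chosen with earlier results of these data known. Any member could be named, and values in all 4 arrays were given for alpha crystallins, for members 2-fold or more from wildtype and for the 3 highest and 3 lowest beta and gamma differences per genotype. The gene cryba1a falls outside this rule and was given as an example of a high signal. Of other lists up to 4 measured genes with the largest differences could be named. Outside that limit are gnat1, foxe3, mipa, gja3 and bfsp2, chosen for their roles after their values were seen. Also outside it are bfsp1 and prox1a, named after their values were seen. The comparison of lrp5-/- with eys-/- was added after seeing the data. Sequences are not shown.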

Additional observations from a re-analysis of the deposited data

How the results depend on the processing

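No paired analysis was possible because there is 1 array per genotype, and for the same reason no replicate could be left out. Alternatives were another choice of probe set, the other 3 arrays averaged as the comparator, centring, removal of the trend with level, no filter or a stricter filter at 7.54, a 1.5-fold threshold, the crygm2d genes as 1 value and all crystallin probe sets. The family median against wildtype ran from -0.07 to -0.03 in the double heterozygote, from 0.0097 to 0.09 in lrp5-/- and from -0.08 to -0.03 in eys-/-. It kept its sign under each of 8 alternatives, but all these values lie within 1 robust SD of 0. Not every alternative could change it. All crygm2d genes lie below the measured level, so taking them as 1 value returned the main median. Only 2 members have more than 1 probe set, so another choice of probe set could change little. The gamma M median crossed 0 under some, from -0.01 to 0.11 in lrp5-/- and from -0.16 to 0.03 in eys-/-. In the double heterozygote the counts of 0 past 2-fold held under each of 9 alternatives, though the crygm2d genes as 1 value could not change them. At 1.5-fold 412 of 10534 measured genes were higher and 235 lower there. In lrp5-/-, 1 member was higher against the mean of the other 3 arrays, a setting with no share of all genes computed. At 1.5-fold 2 members were higher in lrp5-/- than in wildtype, where 217 of 10536 measured genes were. In eys-/- against wildtype, 2 were higher with no filter, both of them crygm2d genes of low signal. With no filter 161 of all 19260 genes passed 2-fold either way in that comparison. With the stricter filter, which leaves out crygm2e, 0 members were lower. In lrp5-/- minus eys-/- 1 member was higher with the stricter filter. With no filter 3 were lower, where 258 of all 19260 genes passed 2-fold either way. At 1.5-fold 3 members were higher and 1 lower, where 356 and 219 of 10569 measured genes were. These alternatives change the array compared, the genes admitted or the threshold. That comparison's alternatives were chosen after seeing the data, as were those of the order of arrays. There lrp5-/- was highest for 13 of 25 members with the stricter filter and 17 of 45 with no filter. The lowest array was eys-/- for 12 of 25 with the stricter filter and 15 of 45 with no filter. With each array centred it was lowest for 11 of 29. For the order of arrays, shares of all genes were computed only in the main setting. They were 20.4% for lrp5-/- highest and 29.7% for eys-/- lowest. Of 318 values of named genes under alternatives 15 changed sign, 13 of them with the other 3 arrays averaged, and those of measured genes were at most 0.12 from wildtype to begin with: cryaa stood at -0.04 in lrp5-/- and at -0.02 in eys-/-, and crybb3 at 0.06 in lrp5-/-. A further unmeasured gene, crygm2d20, stood at -0.02 in the double heterozygote. In the main setting only 3 named values were past 2-fold, those of crygm2e, crygm2d16 and crygm2d20 in eys-/-. The latter 2 genes lie below the measured level. By more than 1 robust SD 7 values moved, each with the other 3 arrays averaged, among them crygm2e in lrp5-/- at 1.34 and cryba1b in eys-/- at -0.71.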
